A study of Homo sapiens with 12 samples.

Results

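The 10 genes described here, TMEM41B, MSTO1, SUGP1, AUP1, DPM2, SHISA4, ZNF341, ZNF519, C3orf33 and SNX21, were listed together as genes whose most abundant transcript was protein-coding in normoxia and noncoding after 24 h in hypoxia, which held on the mean for all but MSTO1. They are 10 of 11313 genes with at least 2 expressed reference transcripts, at least 1 of them protein-coding. The values come from HCT116, an established human colorectal carcinoma cell line, kept at 21% oxygen (0 h) or held in 1% oxygen for 1, 2 or 24 h. Each of the 4 time points has 3 biological replicates, 12 libraries in all, and no genotype or drug distinguishes them. Poly(A) RNA was sequenced with a strand-specific kit, and the abundance of each transcript was deposited as FPKM, fragments per kilobase of transcript and 1000000 mapped fragments. The table holds no read counts, so the number of reads behind a value is unknown and the spread between the 3 libraries of a time point is the measure of precision.

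For each gene, the FPKM of every transcript model that matched a reference transcript exactly (class code =) or shared at least 1 splice junction with it (class code j) was added up per nearest reference transcript. This gave 91 reference transcripts from 136 models, of which 23 were typed as protein-coding, 65 as noncoding and 3 had no type in the annotation used. The noncoding share is the percentage of a gene's FPKM in transcripts of any type other than protein-coding. On the mean of the replicates the most abundant transcript went from coding at 0 h to noncoding at 24 h in 9 of the 10 genes. Across all genes such a change was seen in 221, or 1.95%, and the reverse change in 192. MSTO1 went against the label of the set: its coding transcript ENST00000245564 stayed on top on the mean at 24 h, and a noncoding transcript led in 1 of the 3 libraries. In 7 genes the change held in every library of both time points, against 0.424% of all genes, and MSTO1, ZNF341 and ZNF519 lacked it. A noncoding transcript already led before 24 h in some genes: in ZNF519 in all 3 libraries of 1 h and of 2 h and in 1 of 0 h, in DPM2 in all 3 of 2 h and 1 of 1 h, in C3orf33 in 2 of 3 at both times, and in SHISA4 in 2 of 3 at 1 h and 1 of 3 at 2 h. TMEM41B had it in 1 library of 2 h and ZNF341 in 1 of 1 h, while AUP1, SUGP1, SNX21 and MSTO1 had it in none of the early libraries. Because the genes were chosen on these values, their levels and shares at 0 h and 24 h are a description without a test.

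A gene can yield transcripts that are not translated into its protein in several ways. A retained intron leaves intron sequence in the mature RNA, often with a stop codon in the reading frame, and such RNA may stay in the nucleus. A transcript in which the stop codon lies upstream of an exon junction can be degraded by nonsense-mediated decay (NMD), the surveillance pathway run by the UPF and SMG proteins. A further class holds transcripts of coding genes for which no coding sequence has been defined. At 24 h the leading transcript was of the NMD class in TMEM41B, ZNF341 and C3orf33. It was a retained-intron transcript in SUGP1, AUP1 and DPM2, and a transcript without defined coding sequence in SHISA4, ZNF519 and SNX21. For MSTO1 the most abundant noncoding transcript at 24 h was a retained intron. The types are those of GENCODE release 44 on GRCh37, the same assembly as the hg19 of the files, and all coordinates below are on that assembly.

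In AUP1, DPM2 and MSTO1 the retained-intron transcript held a complete intron of the coding transcript. AUP1 lies on the minus strand at chr2:74753779-74756833, and ENST00000463900 contained every base of the coding sequence of ENST00000377526 together with its intron 3 of 11 (chr2:74756063-74756258, 196 bases). DPM2 lies on the minus strand at chr9:130697378-130700133, and ENST00000495270 kept intron 2 of 3 of ENST00000314392 (chr9:130698935-130699712, 778 bases). MSTO1 lies on the plus strand at chr1:155580009-155584742, and ENST00000478756 kept intron 4 of 13 (chr1:155581083-155581339, 257 bases), but also began and ended inside other introns and held 19.9% of the coding sequence. None of the 3 intron lengths is a multiple of 3. Read in the frame of the coding sequence, the first stop codon came at base 109 of the AUP1 intron, base 112 of the DPM2 intron and base 79 of the MSTO1 intron. The splice sites of these introns are shown because they are the sites that the noncoding transcript leaves unused. The first line of each pair spans the donor, with 6 exon bases before it, and the second spans the acceptor, with 4 exon bases after it. Capitals mark the first and last 2 bases of the intron.
AUP1 intron 3 donor: agcaccGTgagtgag
AUP1 intron 3 acceptor: tctcttctcctggttcccAGcctc
DPM2 intron 2 donor: ctcttgGTatgtcat
DPM2 intron 2 acceptor: agctcttccctcgatgccAGccat
MSTO1 intron 4 donor: gcagagGTgagggcc
MSTO1 intron 4 acceptor: atttttctgacccctcccAGggag
All 3 introns carried the usual GT and AG ends. SUGP1 (minus strand, chr19:19386842-19431318) differed from these although its transcript has the same type. ENST00000591007 kept no whole intron of ENST00000247001: it began 18054 bases downstream of the coding start, with 67 bases of intron 6 (chr19:19413198-19413264), shared all 7 of its introns with the coding transcript, and held 60.6% of the coding sequence.

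The 3 NMD transcripts differed from one another in how much of the protein they encode. TMEM41B lies on the minus strand at chr11:9302201-9336140, and ENST00000299596 had the same annotated coding sequence, 873 bases, as the coding transcript ENST00000528080. What set it apart most was an additional intron of 2329 bases (chr11:9302589-9304917) within the last exon of the coding transcript, so that 53 bases separated the stop codon from the last exon junction. ZNF341 lies on the plus strand at chr20:32319463-32380075, and ENST00000497876 skipped an exon of 197 bases (chr20:32332909-32333105), a length that is not a multiple of 3. Its stop codon fell in exon 3 of 14, with 11 junctions after it. C3orf33 lies on the minus strand at chr3:155480406-155524067, and ENST00000486435 carried 2 further exons inside intron 1, of 127 bases (chr3:155523386-155523512) and 123 bases (chr3:155521840-155521962). The stop codon lay in the second of these, with 4 junctions after it. The bases around the annotated stop codon of TMEM41B and ZNF341 are given from the spliced transcript, with the stop codon in capitals. They are shown because the place of this codon relative to later exon junctions marks the NMD class.
TMEM41B, chr11:9304971-9304973: cagaaatttgagTAAaaataatcatct
ZNF341, chr20:32336803-32336805: cttggtgagcgaTGAtgtgctcatgtc
The TMEM41B codon is the normal stop of the gene, while that of ZNF341 lies well inside the transcript.

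Transcripts without a defined coding sequence lacked the exon with the start codon in SHISA4 and SNX21, and the second coding exon in ZNF519. SHISA4 lies on the plus strand at chr1:201858026-201861715, and ENST00000464117 used another first exon upstream (chr1:201857808-201857909) and kept 87.6% of the coding bases. SNX21 lies on the plus strand at chr20:44462438-44471915, and ENST00000344780 began 352 bases downstream, inside intron 1, and kept 97.5% of the coding bases. ZNF519 lies on the minus strand at chr18:14099937-14132434, and ENST00000588435 started 22 bases upstream of ENST00000590202, skipped its second exon (127 bases, chr18:14124349-14124475) and ended early in the last exon, leaving 25.9% of the coding bases. The map of exons shows the 10 pairs.

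**Figure D1:**
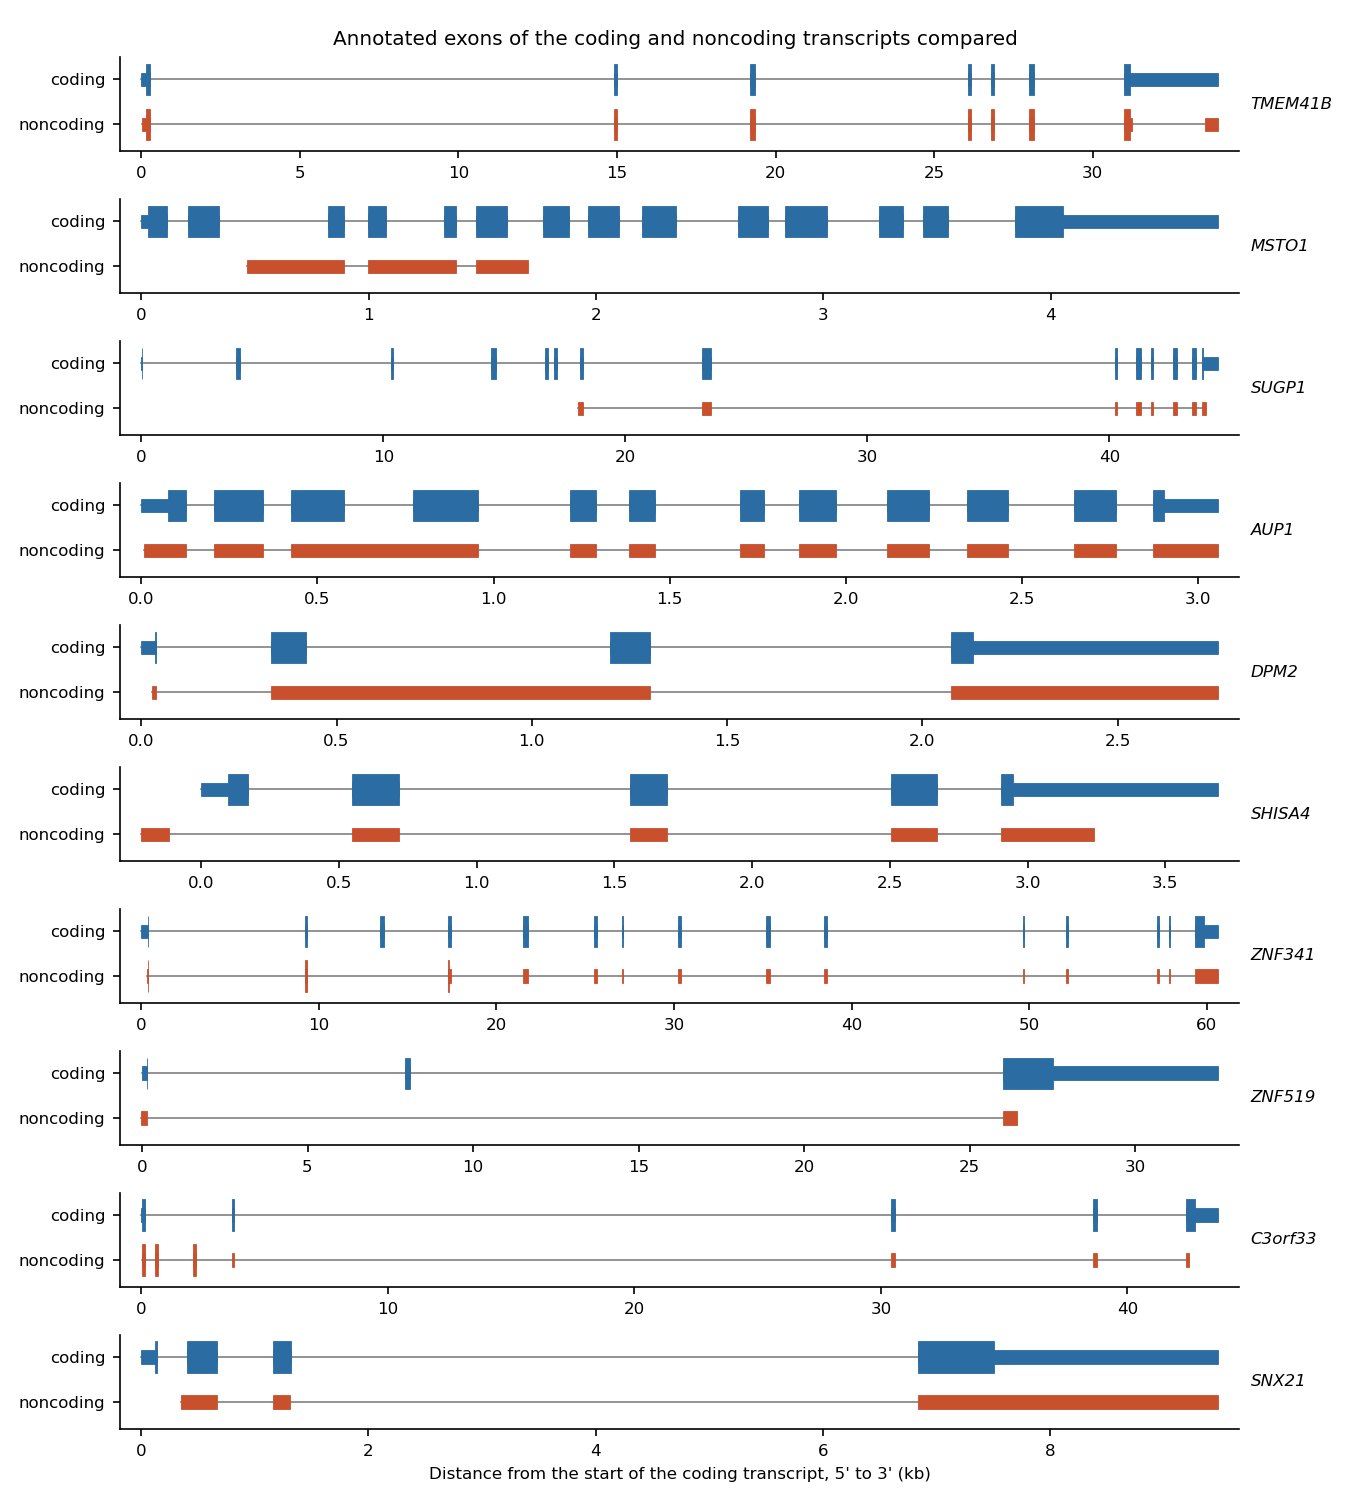
Annotated exons of the leading coding transcript at 0 h (blue) and the leading noncoding transcript at 24 h (red) of each gene, drawn to scale within a gene by distance from the start of the coding transcript (kb); tall boxes are coding sequence, low boxes other exon sequence and lines introns. The AUP1, DPM2 and MSTO1 noncoding transcripts fill an intron, TMEM41B differs mainly in its last exon, and SNX21 and SUGP1 start downstream.

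The labels matched the response of genes known to be induced by low oxygen: NDRG1, ANKRD37, CA9 and VEGFA stood 3.82 to 58.5 times as high at 24 h as at 0 h. Of 7 markers of colorectal epithelium, 5 were above 1 FPKM in every library, and VIL1 and KRT20 were under 1 in all. Of 5 markers of blood, endothelium, fibroblasts or glia, 4 stayed under 1 FPKM, and COL1A1 made up nearly all of their sum, which was 1.8 to 2.2 FPKM at 0 h and 5.77 to 8.83 FPKM at 24 h; its part in the results was not tested. Of all FPKM, 57.0% to 87.6% lay in models shorter than 300 bases, depending on the library, and the sum per library ranged from 1534760 to 5258190. The shares below are taken within a gene and do not depend on this sum. Levels rescaled to the same sum (TPM) do, while the median gene total above 0.5 FPKM ranged only from 9.09 to 10.2 per library. Rescaling to TPM lowered the median log2 difference of all genes, 24 h minus 0 h, from -0.05 to -0.67. Scaling by the median ratio between libraries (median-of-ratios) put it at -0.017.

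TMEM41B, a scramblase of the endoplasmic reticulum that acts with VMP1 in autophagosome formation, had a nearly constant total, 17.1 ± 3.58 FPKM at 0 h and 19.2 ± 3.58 FPKM at 24 h (SD, n = 3 here and throughout), although rescaled to TPM the ratio of these means was 0.64. Its coding transcript ENST00000528080 stood at 8.41, 5.53 and 8.32 FPKM at 0 h and at 0.07, 2.31 and 1.49 FPKM at 24 h. The NMD transcript ENST00000299596 went the other way, from 2.82, 3.54 and 3.51 FPKM to 9.52, 10.8 and 12.4 FPKM. Neither transcript had a 24 h library within the range of the 0 h libraries, and the NMD transcript was 3.32 times as high. Its share of the gene was 19.5% at 0 h and 57.5% at 24 h. Of the NMD transcript's FPKM at 24 h, a mean of 6.19 came from the model that matched the reference exactly and 4.23 from a longer model of 4657 bases that shared only part of its junctions. That longer model was at 0.36 FPKM at 0 h, 0.84 at 1 h and 1.46 at 2 h. It belongs to the start-site group of the coding ENST00000528080, and its coding status is not annotated. The exactly matching model alone was 2.11 times as high at 24 h as at 0 h. With class = models alone the noncoding share of TMEM41B was higher at 24 h by 34.6 percentage points, against 41.1 with both classes.

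In the genes with retained-intron transcripts, AUP1, DPM2, SUGP1 and MSTO1, the coding transcript was lower at 24 h without overlap. The leading retained-intron transcript overlapped between the time points in AUP1, DPM2 and MSTO1 and was lower in SUGP1. AUP1, which recruits the ubiquitin-conjugating enzyme UBE2G2 for degradation of proteins from the endoplasmic reticulum and also sits on lipid droplets, was the most abundant of the 10, at 86.5 ± 12.9 FPKM at 0 h. Its coding transcript ENST00000377526, the only coding one listed above 0, was at 51.4, 37.3 and 34.6 FPKM at 0 h and at 17.3, 15.1 and 9.62 FPKM at 24 h. The transcript with intron 3 was at 27.7, 25.7 and 20.7 FPKM at 0 h and at 32.8, 33.6 and 25.6 FPKM at 24 h, so these groups overlapped. The noncoding share of AUP1 was 48.5%, 56.3% and 53.4% at 0 h and 78.4%, 79.7% and 83.6% at 24 h. A second AUP1 transcript, ENST00000425118 of the NMD class, contributed 9.49, 12.1 and 9.36 FPKM at 0 h and 19.3, 14.8 and 13.0 FPKM at 24 h, without overlap.

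DPM2 is the regulatory subunit of dolichol-phosphate mannose synthase, which supplies mannose for glycosylation in the endoplasmic reticulum. Its coding transcript ENST00000314392 was at 13.2, 9.47 and 10.7 FPKM at 0 h and at 3.12, 2.45 and 3.55 FPKM at 24 h. The transcript with intron 2 was at 6.18, 7.74 and 6.50 FPKM at 0 h and at 8.26, 9.33 and 7.13 FPKM at 24 h, with overlap. The whole gene was lower at 24 h in all 3 libraries, 16.9 ± 0.65 against 26.3 ± 0.32 FPKM. The other retained-intron transcript of DPM2, ENST00000470181, was lower too, at 5.34 FPKM against 8.07 FPKM. All noncoding FPKM of DPM2 was of the retained-intron type, and its share was 49.1%, 62.9% and 59.2% at 0 h and 81.8%, 83.3% and 75.6% at 24 h.

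SUGP1, a G-patch protein of the spliceosome that binds SF3B1 and DHX15, showed lower levels of both transcripts. ENST00000247001 was at 7.93, 6.81 and 6.43 FPKM at 0 h and at 2.05, 0.41 and 1.60 FPKM at 24 h. The shorter ENST00000591007 was at 4.28, 4.28 and 4.39 FPKM at 0 h and at 3.49, 3.41 and 2.2 FPKM at 24 h, lower without overlap. It became the leading transcript because the coding one was lower by more: the ratio of the means was 0.19 for the coding and 0.70 for the noncoding transcript. All noncoding SUGP1 transcripts together were at 9.19 ± 1.85 FPKM at 0 h and at 8.35 ± 1.91 FPKM at 24 h.

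MSTO1, which is needed for the distribution and shape of mitochondria, had the lowest ratio of coding FPKM between 24 h and 0 h among the 10, at 0.17. Its coding transcripts together were at 18.1, 16.3 and 15.7 FPKM at 0 h and at 2.52, 3.85 and 2.29 FPKM at 24 h. The retained-intron transcript ENST00000478756 was at 1.51 ± 0.29 FPKM at 0 h and 1.53 ± 0.76 FPKM at 24 h. Noncoding FPKM was spread over many transcripts and was itself at 7.28 FPKM at 0 h and 4.74 FPKM at 24 h, so the noncoding share went from 30.2% to 61.5% as the whole gene went from 24.0 to 7.68 FPKM. MSTO1 values carry a further uncertainty, since the assembled locus also held MSTO2P, its near-identical copy at chr1:155715620-155719928. Of the windows of 100 bases inside single exons of the MSTO1 coding transcript, 28.3% occurred unchanged in MSTO2P, and the FPKM of these stretches may have been divided between the 2 copies.

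SHISA4 and ZNF341 were the genes in which both kinds of transcript were at a higher mean FPKM at 24 h, although rescaled to TPM the coding kind was lower in both. SHISA4, a transmembrane protein of the Shisa family, had its coding transcript at 1.54, 2.80 and 2.78 FPKM at 0 h and at 3.60, 3.52 and 3.91 FPKM at 24 h. The transcript from the upstream first exon was at 1.11, 0.52 and 2.26 FPKM at 0 h and at 4.91, 5.41 and 5.20 FPKM at 24 h. Neither pair of groups overlapped in FPKM. The ratios of the means were 1.55 for the coding and 3.99 for the noncoding transcript, and rescaled to TPM the coding ratio was 0.88. One 0 h library weighed on the share of SHISA4: its noncoding share was 44.8%, 16.7% and 45.7% at 0 h, and without replicate 2 of 0 h the difference to 24 h was 14.6 in place of 24.2 percentage points.

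ZNF341, a zinc finger factor that drives transcription of STAT3, was at 1.47 ± 0.22 FPKM at 0 h and at 2.79 ± 0.34 FPKM at 24 h. Its coding total overlapped between the time points, at 0.79 ± 0.09 and 1.03 ± 0.66 FPKM, and rescaled to TPM the ratio of these means went from 1.31 to 0.68. The transcript that skips an exon was at 0 (listed), 0.35 and 0.21 FPKM at 0 h and at 0.94, 0.96 and 1.07 FPKM at 24 h. Among the coding transcripts, ENST00000342427 was lower at 24 h (0.25 against 0.70 FPKM) and ENST00000375200 higher (0.78 against 0.09 FPKM). The noncoding share, 43.2%, 45.8% and 49.5% at 0 h and 65.9%, 83.2% and 44.6% at 24 h, therefore overlapped between the time points. Without replicate 2 of 24 h its mean difference was 9.14 and without replicate 3 of 24 h it was 28.5, against 18.5 percentage points with all libraries, and it was 44.2 with only models above 0.5 FPKM in at least 3 libraries.

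C3orf33, a little characterised gene, had a coding transcript at 1.69, 2.21 and 3.09 FPKM at 0 h and at 0 (listed), 0.29 and 0.91 FPKM at 24 h. FPKM assigned to the NMD transcript was 0.80, 0 and 0.68 at 0 h and 1.65, 2.07 and 1.29 at 24 h. Nearly all of the latter belonged to a model of 1852 bases of class j, with a mean of 1.56 FPKM, while the model that matched ENST00000486435 exactly was at 0.04 FPKM. The coding status of that longer model is not annotated, and with class = models alone the difference of the noncoding share was 22.8 in place of 47.4 percentage points. C3orf33 was also the least stable gene at the early times, with noncoding shares of 54.4%, 0% and 94.2% at 1 h and 79.8%, 76.9% and 19.9% at 2 h.

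SNX21, a sorting nexin of endosomes, had totals that overlapped, 3.30 ± 0.15 FPKM at 0 h and 3.43 ± 0.69 FPKM at 24 h, with a ratio of the means of 1.04 that became 0.60 when rescaled to TPM. The transcript starting in intron 1 was at 0.27, 0.49 and 0.68 FPKM at 0 h and at 1.79, 1.32 and 1.09 FPKM at 24 h, while the coding ENST00000491381 was at 1.15, 1.64 and 1.32 FPKM and then at 0.87, 0.04 and 0.71 FPKM. A second coding transcript, ENST00000462307, was at 0.02 FPKM or below at 0 h and at 0.76, 0.57 and 0.32 FPKM at 24 h, and a retained-intron transcript, ENST00000372547, was lower at 24 h, at 0.08 against 0.50 FPKM. The retained-intron share of SNX21, 15.1% at 0 h and 5.44% at 24 h, thus ran opposite to its noncoding share. The difference in the noncoding share, 14.6 percentage points, was 49.5 with only models above 0.5 FPKM in at least 3 libraries.

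ZNF519, a zinc finger gene, differed least. Its noncoding share was already 72.1%, 69.8% and 49.2% at 0 h and was 77.0%, 73.4% and 62.6% at 24 h, with overlap. The leading transcript changed as ENST00000590202 went from 0.91 ± 0.53 FPKM to 0.57 ± 0.19 FPKM and ENST00000588435 from 0.59 ± 0.05 FPKM to 0.83 ± 0.09 FPKM. Another noncoding transcript, ENST00000587512, at 0.45 FPKM at 0 h, was listed at 0 in every 24 h library. ENST00000588435 was higher at 1 h (1.35 FPKM) and 2 h (1.07 FPKM) than at 24 h. Without replicate 3 of 0 h the difference in the noncoding share was 0.03, and with all libraries 7.30 percentage points. Without replicate 1 of 0 h, replicate 1 of 24 h and replicate 3 of 24 h in turn it was 11.5, 4.30 and 11.5. With only models above 0.5 FPKM in at least 3 libraries it was 30.6, so the place of ZNF519 as the lowest depends on its low models.

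**Figure D2:**
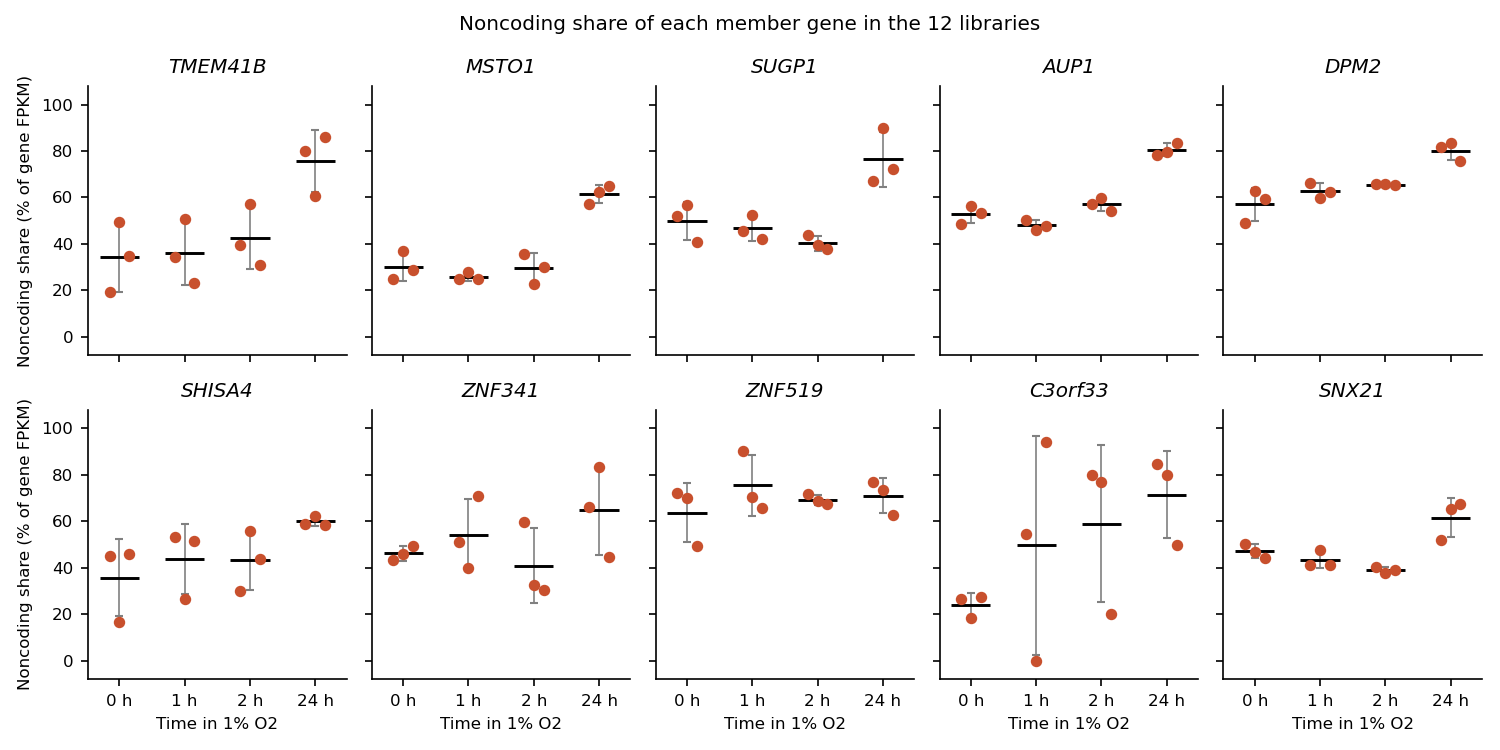
Noncoding share of each gene, in percent of the gene's FPKM, against the time in 1% oxygen; red points are the 3 libraries of a time point, black lines their mean and grey bars 1 SD. In 8 genes all 24 h points lie above all 0 h points, ZNF341 and ZNF519 overlap, and C3orf33 spreads from 0% to 94.2% at 1 h.

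Across the 10 genes the noncoding share was higher at 24 h than in any 0 h library in 8, ZNF341 and ZNF519 being the others, where 14.2% of 9694 genes with a share in every library showed this. None of the 10 was lower without overlap, where 7.60% of genes were. The rule used these libraries, so the count stands as a description. The median share was 46.6% at 0 h and 71.2% at 24 h, so about as much FPKM was noncoding as coding in the typical member before hypoxia, whereas the median over 9721 genes was 9.05% and 10.1%. The median difference was 25.4 percentage points over the 10 genes, 0.35 over all genes and 15.0 over the other 212 genes whose leading transcript changed from coding to noncoding. By this difference C3orf33 came 12th and TMEM41B 16th of 9721 genes, and ZNF519 came 1475th. ZNF519 and MSTO1 were at the edges of the set: the former changed its leading transcript with a difference of 7.30 points, the latter did not change it with 31.4 points. The plot of differences over all genes places them.

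**Figure D3:**
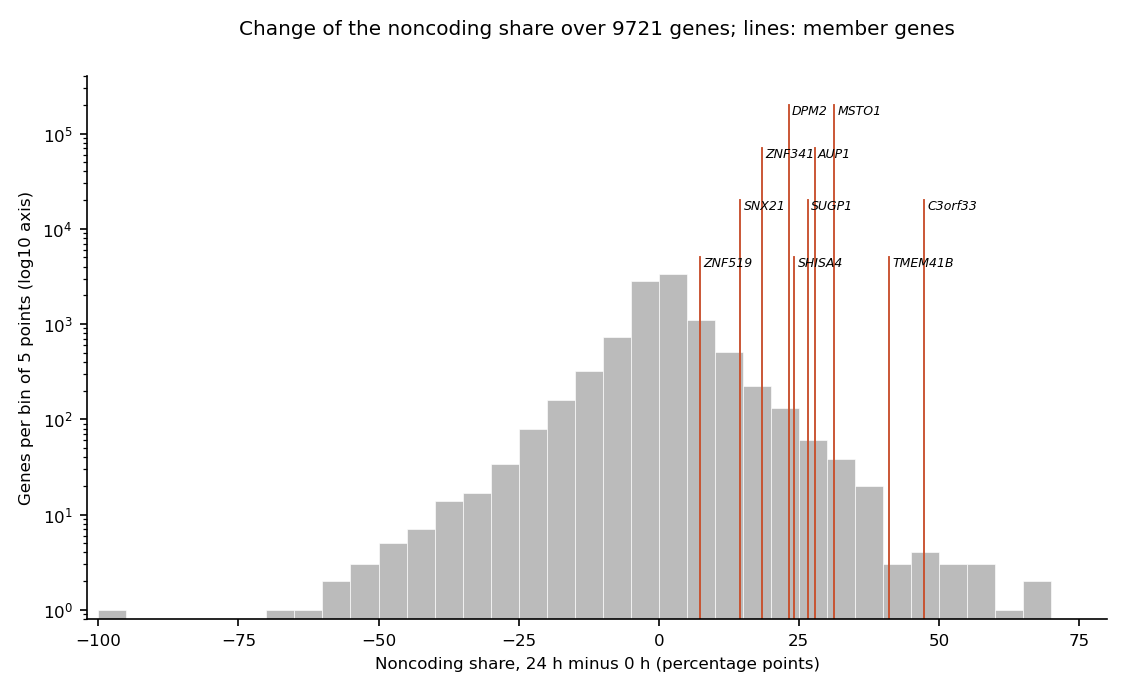
Number of genes (log10 axis) by the difference of the mean noncoding share between 24 h and 0 h, in bins of 5 percentage points, for 9721 genes; red lines mark the 10 genes. All 10 lie above 0, from 7.30 points (ZNF519) to 47.4 points (C3orf33).

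The difference in share had unlike sources among the genes. Summed over all coding transcripts of a gene, FPKM at 24 h was lower than in any 0 h library in MSTO1, SUGP1, AUP1, DPM2 and C3orf33, with ratios of the means from 0.17 to 0.34, where 34.8% of 9721 genes were lower in this way. It was higher in SHISA4, as in 28.9%. Summed noncoding FPKM was higher than in any 0 h library in TMEM41B, AUP1, SHISA4, ZNF341, C3orf33 and SNX21, with ratios from 1.25 (AUP1) to 3.97 (SHISA4), where 17.0% of genes were higher, and it was lower in none, where 15.0% were. The rule used these libraries, so both counts are a description. Rescaled to TPM, the noncoding ratios of AUP1 and SNX21 turned to 0.74 and 0.75, while the others stayed above 1 and each coding ratio below 1 stayed below it. The gene total was higher at 24 h without overlap in SHISA4 and ZNF341, where 27.6% of 16680 genes were, and lower in MSTO1, SUGP1, DPM2 and ZNF519, where 32.8% were.

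**Figure D4:**
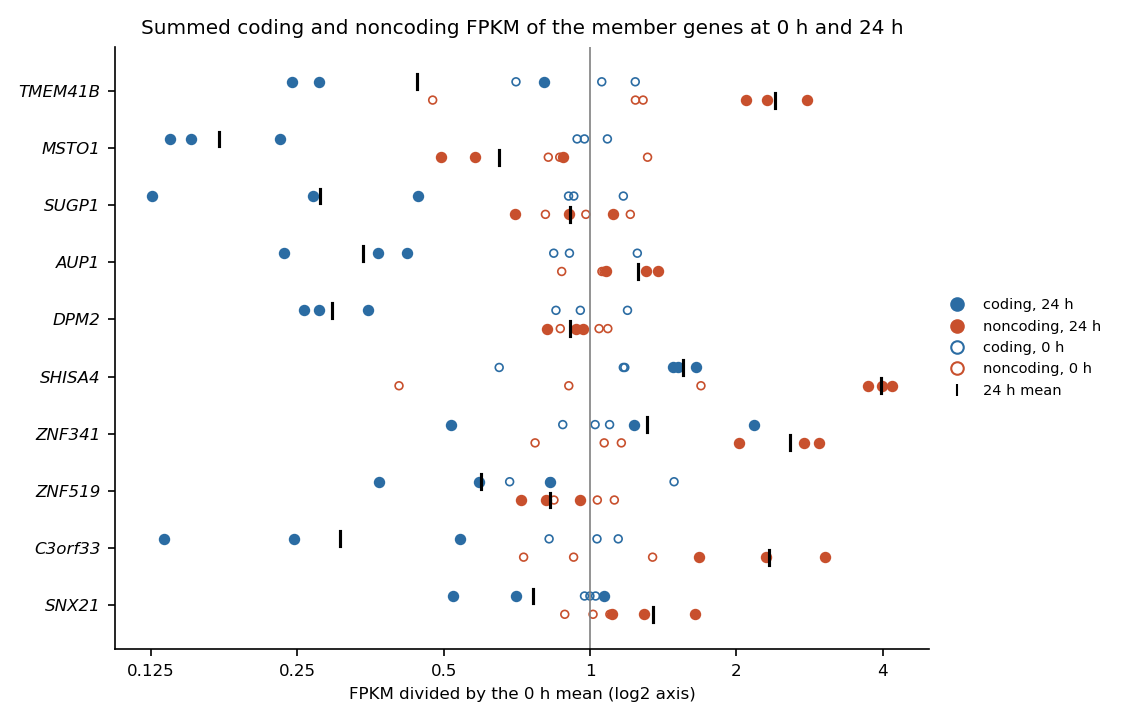
FPKM of all coding (blue) and all noncoding (red) transcripts of each gene divided by the 0 h mean, on a log2 axis; open points are the 0 h libraries, filled points the 24 h libraries and black ticks the 24 h mean. Coding points lie to the left of 1 without overlap in MSTO1, SUGP1, AUP1, DPM2 and C3orf33, and both kinds lie to the right in SHISA4, whose coding ratio falls below 1 with TPM.

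The early time points allow a comparison in libraries that did not enter the choice of genes. Between 1 h and 2 h, 0 of 9721 genes passed limma for the log2 ratio of noncoding to coding FPKM (percent called 0, adjusted p under 0.05 by Benjamini-Hochberg), and 367 had an unadjusted p under 0.05. None of the 10 genes passed, and AUP1 alone was below 0.05 before adjustment, with a log2 difference of 0.51 (SE 0.21, unadjusted p = 0.0281, limma adjusted p = 0.9996). AUP1's noncoding share was 50.4%, 46.2% and 47.6% at 1 h and 57.1%, 59.7% and 54.2% at 2 h, without overlap, as in 4.77% of all genes. SNX21 ran the other way, 41.1%, 47.5% and 41.3% at 1 h and 40.1%, 37.5% and 38.8% at 2 h, as in 4.01%. The log2 differences of the 10 genes ranged from -0.42 to 0.51 with 5 above 0, and the SE was as wide as 1.15 in C3orf33, so differences of the size seen at 24 h could not be told from 0 in every gene. For gene totals, 1 of 16680 genes passed (0.00600%), the U1 small nuclear RNA variant RNVU1-16, named after its value was seen, with 567 below an unadjusted 0.05, and none of the 10 genes was among them. With the replicate number as a block 2 genes passed, KDM3A being added, likewise named after its value was seen (log2 0.84, limma adjusted p = 0.0384), and again none of the 10. Without a test, SUGP1 alone had totals that did not overlap, lower at 2 h, as in 4.62% of genes, and none was higher, as in 4.11%.

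The 0 h libraries entered the choice of genes, so comparisons of 1 h and 2 h with 0 h are a description and not independent of it. Compared with 0 h, no gene of the 10 had a noncoding share without overlap at 1 h, where 4.01% of genes were higher and 5.91% lower. At 2 h DPM2 was higher without overlap, at 65.6%, 65.9% and 65.2%, as in 5.82% of genes, and SNX21 was lower, as in 7.40%. Among the totals, SUGP1 and SNX21 were lower at 1 h without overlap, as in 7.33% of genes, and none was higher, as in 6.36%. At 2 h MSTO1, SUGP1 and SNX21 were lower, as in 13.1%, and C3orf33 was higher, as in 12.2%. Deviations of same-number libraries correlated above 0.1 in all 3 pairs of 0 h and 2 h as well. Within these pairs the AUP1 total was also lower at 2 h in all 3, at 84.2, 73.2 and 57.9 FPKM against 100.0, 85.4 and 74.3 FPKM, which with MSTO1, SUGP1 and SNX21 makes 4 genes, where 28.4% of all genes were lower in all 3 pairs and 25.2% higher. By the same reading the noncoding share was higher at 2 h in AUP1 and DPM2, as in 12.5% of genes, and lower in SUGP1 and SNX21, as in 15.8%. SUGP1 had a total of 14.4 ± 2.01 FPKM at 1 h and of 11.6 ± 0.84 FPKM at 2 h against 18.4 ± 1.17 FPKM at 0 h, so its total at 2 h already overlapped the 24 h level of 10.9 ± 1.79 FPKM. Its noncoding share was then 40.3 ± 3.17%, and 76.4 ± 11.9% at 24 h. In SUGP1 the total was thus lower from 1 h on, and the noncoding share higher only at 24 h among the times sampled.

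The 19 relatives and partners of the 10 genes and 9 NMD factors did not enter the choice and were tested between 24 h and 0 h. Of these 28 genes, SHISA2 and SNX20 were listed at 0 and not tested, and 26 were tested for the gene total, with 6 higher, 9 lower and 11 not called. Across all genes 55.3% passed this test, 25.0% higher and 30.3% lower. The near-identical copy of MSTO1, MSTO2P, fell from 13.9, 14.4 and 14.8 FPKM to 3.43, 4.24 and 4.30 FPKM. Its log2 difference was -1.73 (SE 0.16, limma adjusted p = 3.6e-06), beside the lower total of MSTO1 itself. MSTO2P shares its assembled locus and stretches of sequence with MSTO1, a chosen gene, so this test is not independent of the choice. In the mannose synthase, the catalytic DPM1 fell by 0.95 on the log2 scale (limma adjusted p = 2.16e-05), while DPM3, which anchors the complex, rose by 0.51 (limma adjusted p = 0.00793), although with TPM the DPM3 difference was -0.34. PIGA, which starts synthesis of the GPI anchors that take up this mannose, rose by 0.76, and with TPM stood at -0.035.

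Around AUP1, UBE2G2 fell by 0.62 (limma adjusted p = 0.0106) and FAF2 by 0.31, the ubiquitin ligase SYVN1 and its cofactor SEL1L rose by 0.55 and 0.52, and DERL1 was not called at -0.14. With TPM the SYVN1 and SEL1L differences were -0.28 and -0.31, and with class = models alone the SEL1L call was lost (limma adjusted p = 0.125). STAT3, the target of ZNF341, rose from 14.4, 15.5 and 16.3 FPKM to 31.7, 28.2 and 33.6 FPKM, a log2 difference of 0.99 (SE 0.10, limma adjusted p = 7.5e-06), and with TPM 0.14 (limma adjusted p = 0.804). Among the partners of SUGP1, the helicase DHX15 fell by 0.41, the splicing factor SF3B1 was not called at 0.05, and the paralogue SUGP2 rose by 0.52, at -0.32 with TPM. SHISA5 fell by 0.38. TMEM41A, TMEM64 and VMP1, the relatives of TMEM41B, were not called, at -0.34, 0.15 and 0.04. TMEM41A was called lower with a replicate block (limma adjusted p = 0.016), with class = models alone (limma adjusted p = 0.0237) and with TPM (limma adjusted p = 0.0231).

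The leading transcripts of TMEM41B, ZNF341 and C3orf33 at 24 h were assigned to the NMD class. In C3orf33 this was mainly, and in TMEM41B partly, through models whose coding status is not annotated. Of the 28 genes, 9 are factors of that pathway. Of these, UPF1, UPF3B and SMG8 were lower, with log2 differences of -0.44, -0.73 and -1.10, none was higher and 6 were not called, which is close to the 30.3% of all genes that were lower. Without replicate 1 of 24 h SMG1 and SMG6 were called higher (limma adjusted p = 0.0471 and 0.0245), and without replicate 3 of 24 h UPF3A was called lower (limma adjusted p = 0.0495). With TPM SMG9 was called lower (limma adjusted p = 0.0433). The call of UPF1 was lost without replicate 2 of 24 h (limma adjusted p = 0.0658). Whether these lower levels have a part in the higher FPKM assigned to the NMD class in TMEM41B, ZNF341 and C3orf33 was not tested.

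For the ratio of noncoding to coding FPKM, 23 of these genes could be tested, and 5 were higher, 1 lower and 17 not called, where 15.0% of all genes passed, 9.02% as higher. SMG5 went from noncoding shares of 18.6%, 11.8% and 9.60% to 34.8%, 37.1% and 30.2% (log2 ratio 1.67, SE 0.26, limma adjusted p = 0.00247). SMG9 went from 9.77%, 5.61% and 5.07% to 22.0%, 18.5% and 20.3% (log2 ratio 1.57, SE 0.25, limma adjusted p = 0.00238). These 2 kept their calls in every alternative run. TMEM41A and VMP1 were called higher without replicate 1 of 24 h (limma adjusted p = 0.0475 and 0.0221) and DPM1 without replicate 3 of 0 h (limma adjusted p = 0.0297), where the noncoding share of DPM1 was under 2% in every 0 h and 24 h library and its coding FPKM was lower. DHX15 was higher by 0.99 (limma adjusted p = 0.0421) and SUGP2 lower by 0.96 (limma adjusted p = 0.0242), SUGP2 moving from 44.6% to 28.7%, opposite to its paralogue SUGP1, whose noncoding share was higher at 24 h. The DHX15 call was lost without any one of the 3 replicates of 0 h or replicates 2 or 3 of 24 h (limma adjusted p = 0.0547 to 0.128), and the SUGP2 call without replicates 2 or 3 of either time point (limma adjusted p = 0.0627 to 0.0715) and with class = models alone (limma adjusted p = 0.319). The calls of UPF3B and SMG8 are not a change of isoform: the noncoding share was at most 0.58% in every 0 h and 24 h library of both, and the log2 ratio with its pseudocount of 0.5 followed their coding FPKM. The UPF3B call was also lost without any one replicate of 0 h or replicate 1 of 24 h (limma adjusted p = 0.057 to 0.0667). With coding and noncoding FPKM each required above 0.5 in at least 3 libraries, a condition added after the data were seen, 3 of 19 genes passed, SMG5, SMG9 and SUGP2, against 11.5% of all genes.

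**Figure D5:**
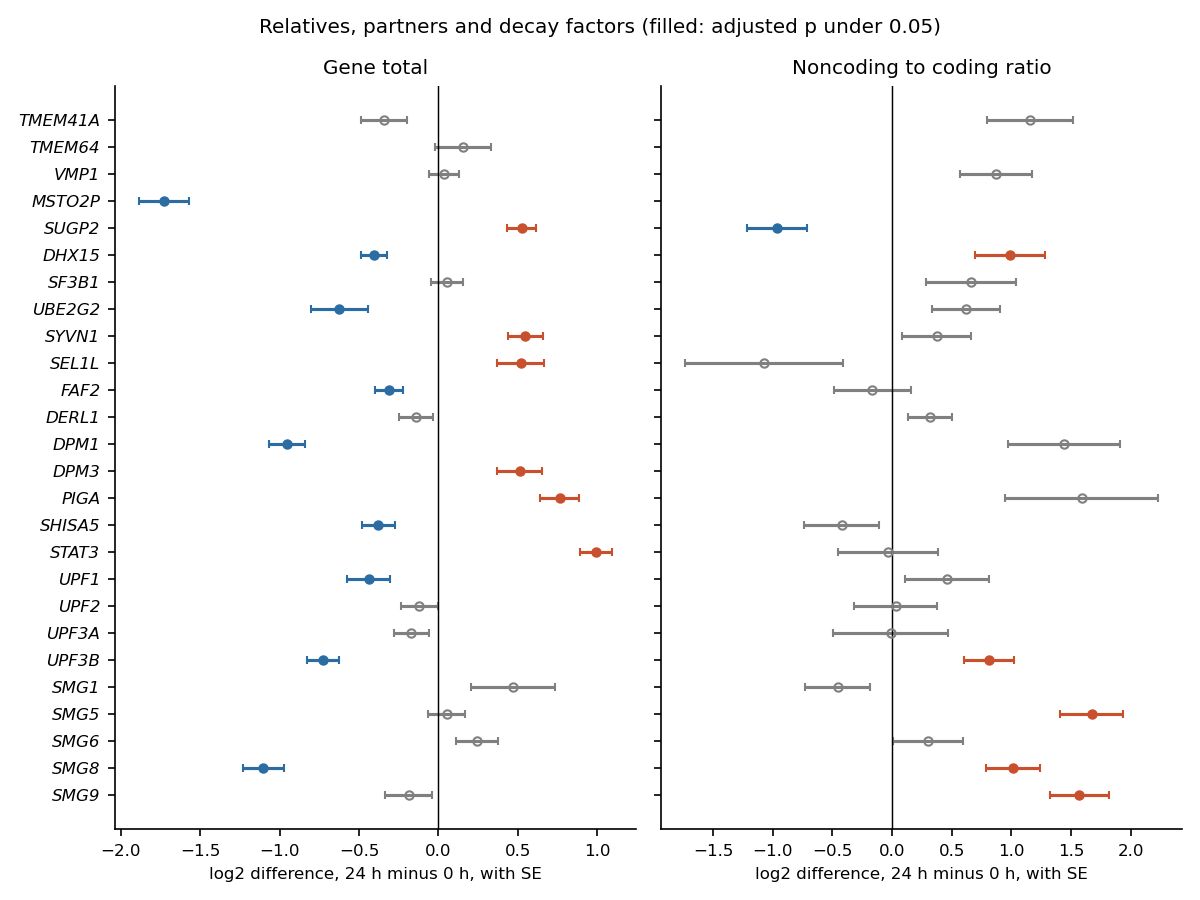
Log2 difference between 24 h and 0 h, with its SE from limma, of the gene total (left, in FPKM) and of the ratio of noncoding to coding FPKM (right) for the relatives and partners that could be tested; filled red points are higher and filled blue points lower at an adjusted p under 0.05, open grey points are not called. MSTO2P has the lowest total difference at -1.73, and SMG5 and SMG9 the highest called ratios; with TPM the higher totals of SUGP2, SYVN1, SEL1L, DPM3 and PIGA turn below 0.

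The same measure was computed for HDAC6 and TP53BP1, a deacetylase and a DNA repair factor which the study singled out for retained introns in these same libraries. Their values too are a description without a test. The study also reported lower protein of both by western blot, which these RNA values do not measure. The noncoding share counts all noncoding types. The retained-intron share alone went from 2.42% at 0 h to 12.2% at 24 h in TP53BP1, without overlap. In HDAC6 it went from 23.4% to 32.4%, with overlap. TP53BP1 went from a noncoding share of 12.2%, 8.17% and 7.94% at 0 h to 35.0%, 29.6% and 27.7% at 24 h and so stayed mainly coding. HDAC6 was at 52.1%, 17.7% and 22.6% at 0 h and at 39.7%, 48.9% and 38.5% at 24 h, with overlap. Its mean difference of 11.5 percentage points was 22.2 without replicate 1 of 0 h and 5.01 without replicate 2 of 0 h. Summed noncoding FPKM of HDAC6 was higher at 24 h without overlap, 11.1 ± 0.90 against 4.27 ± 2.31 FPKM, and its ratio of 2.61 became 1.54 with TPM. Summed coding FPKM of HDAC6 was higher too, with a ratio of 1.44 that turned to 0.84 with TPM.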

How the data were processed

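The authors aligned reads to hg19 with Mapsplice v2.1.4, assembled transcripts with Cufflinks v2.2.0, merged them with Ensembl release 74 and deposited FPKM values for each transcript model in each library. The labels also name CASAVA 1.8.2. No scaling between libraries beyond FPKM is given in the sources used here. From the deposited table, FPKM of class code = and j models was summed per nearest reference transcript and per gene name. Types came from GENCODE 44 lifted to GRCh37, which gave a type to 85.5% of 211975 reference transcripts. All types other than protein-coding counted as noncoding, including NMD, and untyped transcripts stayed in the total. Genes needed more than 0.5 FPKM in at least 3 libraries. Totals were tested as log2(FPKM + 0.5) and ratios as log2((noncoding + 0.5)/(coding + 0.5)), a scale that understates differences of low genes, with limma 3.58.1 in R 4.3.3 (lmFit and eBayes with trend, two-sided, all 12 libraries, Benjamini-Hochberg over all genes). Replicate numbers are shared across time points, with no stated link. Deviations of same-number libraries correlated at 0.12 to 0.43 between 1 h and 2 h, and at 0.13 to 0.36 between 0 h and 2 h, above 0.1 in all 3 pairs. The main tests had no replicate term. Pairs were used in added readings: a replicate block for 2 h against 1 h, and same-number differences for 2 h against 0 h. Between 0 h and 24 h the correlations were -0.00078 to 0.24, above 0.1 in 1 of 3. The steps were tested on simulated data. Tables and figures used Python 3.11.15, pandas 2.3.3, numpy 2.4.6 and matplotlib 3.10.9. Named genes are the 10 members, their leading transcripts and those with a mean share of at least 10% of the gene, listed partners, HDAC6, TP53BP1 and markers. Partners not called (TMEM41A, TMEM64, VMP1, SF3B1, DERL1) and RNVU1-16 and KDM3A were named after their values were seen. The members and lists were chosen with earlier results of these data known. One partner gene and one stretch of sequence are not reported here.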

Additional observations from a re-analysis of the deposited data

How the results depend on the processing

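The reads behind each value are unknown, so low transcripts are limited by the spread between 3 libraries. The median difference of the noncoding share between 24 h and 0 h over the 10 genes, 25.4 percentage points, was 35.4 when only models above 0.5 FPKM in at least 3 libraries were kept and 16.1 when NMD transcripts were not counted as noncoding, and it ranged from 22.3 to 27.8 as each replicate was left out. Without NMD transcripts the ZNF341 difference turned to -4.45 and 6 genes had a changed leading transcript, against 9; that alternative removes the leading transcript of 3 genes by construction, with TMEM41B at 3.32 and C3orf33 at 0. The number of genes with a total that differed between 2 h and 1 h, 1 in the main analysis, was 2 with a replicate block, 0 with only the 6 libraries compared and 26 with TPM. For the list of partners, the ratio of noncoding to coding FPKM was called in 6 genes, in 2 with a pseudocount of 0.1, in 8 with a pseudocount of 1 (DPM1 and TMEM41A added), in 2 with only the 6 libraries compared, in 3 with both kinds above 0.5 FPKM and in 3 to 7 as each replicate was left out. With TPM the totals of SUGP2, SYVN1, SEL1L, DPM3 and PIGA turned to log2 differences of -0.32, -0.28, -0.31, -0.34 and -0.035, as the median of all genes moved to -0.67, and calls of higher totals among all called genes went from 45.2% to 7.48%. With median-of-ratios scaling 47.9% of the called totals were higher and no partner total changed its call. The cause of the other changes was not tested. Between 24 h and 0 h the same-number correlations did not all exceed 0.1, although 10 of 12 libraries correlated best with their own number, a hint from the data. There, with the replicate block 16 partner totals were called, against 15, and 6 ratios, against 6, DHX15 being lost (limma adjusted p = 0.0636) and TMEM41A gained. Between 2 h and 1 h the block changed no call beyond the total of KDM3A.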
